A study of Homo sapiens with 6 samples.

Results

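Of the 28862 genes in the count table, 54 encode splicing regulators outside the small nuclear ribonucleoproteins, and all 54 listed symbols were found. They were chosen by symbol and family, with earlier results of these data known. They comprise 11 SR proteins, 9 SR-like and SR-related proteins, 6 SR protein kinases, 20 hnRNP proteins and 8 PTBP, NOVA and RBFOX proteins. Read counts allowed a test for 53 of them; RBFOX3, the neuronal nuclear antigen, had 2 to 7 reads in a library and was not tested.

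The libraries were made with a stranded mRNA kit from total RNA of SH-SY5Y cells, an established human neuroblastoma line that is often used as a model of immature sympathetic neurons. 3 libraries are labelled as SMN1 overexpressed in SHSY5Y cells and 3 as SHSY5Y cells with a control plasmid. Both groups thus share the line. The plasmid, how it was delivered, the time of harvest and whether a clone or a pool was used are not stated in the sources used here. The study asked how overexpression of SMN1, the gene lost in spinal muscular atrophy, alters the transcriptome of these cells.

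The libraries held 32664151, 40275498 and 31740870 reads assigned to genes in the SMN1-labelled group and 30827766, 31286361 and 30379242 in the control group. SMN1 itself went against the label: it had 14.8, 16.6 and 16.6 CPM (read counts scaled to library size) in the SMN1-labelled libraries, against 20.04, 20.4 and 19.6 CPM in the control libraries. It was thus lower in the libraries labelled for its overexpression (log2 fold change -0.32 with SE 0.061, adjusted p = 9.40e-05 in edgeR), and its near-identical copy SMN2 was also lower (log2 fold change -0.30 with SE 0.082, adjusted p = 0.00310 in edgeR), so reads of the pair may be split. Whether reads from a plasmid entered these counts, or the labels of the groups were exchanged, was not tested. Every direction below is that of the labelled groups and would be inverted were the labels exchanged. The line's adrenergic markers were present, at 33.9 to 627 FPKM (fragments per kilobase and library size) in the SMN1-labelled libraries and 27.4 to 529 FPKM in the control libraries for 8 of 9, while TH, which makes the catecholamine precursor, was at 0.09 FPKM or less. The 10 mesenchymal or Schwann-like markers in the FPKM table summed to 285 to 317 FPKM in the SMN1-labelled and 349 to 372 FPKM in the control libraries, mostly from TWIST1. VIM stood at 17.1 to 17.7 FPKM in SMN1-labelled and 32.5 to 34.2 FPKM in control libraries. With the length and GC correction given below, 7 of the 9 tested markers of this list were called lower, against 22.8% of all genes. VIM was among them (log2 fold change -1.11). TWIST1 was not, at -0.02 (edgeR BH-adjusted p = 0.610) against -0.32 without the correction. Of the 8 tested adrenergic markers 4 were called higher and 0 lower with the correction, against 26.0% and 22.8% of all genes. Without it 3 were higher and 5 lower, against 28.0% and 28.2%. The part of these marker shifts in the results below was not tested. In bulk RNA fewer cells of a type and less RNA per cell cannot be told apart.

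SR proteins carry domains rich in arginine and serine and, by binding exonic enhancers, recruit the spliceosome to weak splice sites, while hnRNP proteins bind nascent transcripts and often repress the same exons. SRPK kinases phosphorylate the arginine-serine domains in the cytoplasm so that SR proteins enter the nucleus, and CLK kinases phosphorylate them further in nuclear speckles. PTBP, NOVA, RBFOX and SRRM4 proteins set the programmes of neuronal exons. Members of these families also bear on SMN2, whose skipped exon is promoted by TRA2B and repressed by HNRNPA1.

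CLK2 lost its call when a replicate block was added to the length and GC correction (below). With that correction alone the calls of all 6 SR protein kinases, 4 higher and 2 lower, held. For this reason the first-listed RefSeq promoter windows (GRCh38.p14, 250 bases before to 50 after the start site) of 3 that were higher and 1 that was lower are shown, each on the coding strand from 5′ to 3′. They lie at chr2:200864609-200864908 (CLK1, minus strand), chr5:178627001-178627300 (CLK4, minus strand), chr6:35921049-35921348 (SRPK1, minus strand) and chr1:155273455-155273754 (CLK2, minus strand). Capitals mark matches, on either strand, to a GC box (GGGCGG), the NRF1 motif or an E-box (CACGTG).
CLK1: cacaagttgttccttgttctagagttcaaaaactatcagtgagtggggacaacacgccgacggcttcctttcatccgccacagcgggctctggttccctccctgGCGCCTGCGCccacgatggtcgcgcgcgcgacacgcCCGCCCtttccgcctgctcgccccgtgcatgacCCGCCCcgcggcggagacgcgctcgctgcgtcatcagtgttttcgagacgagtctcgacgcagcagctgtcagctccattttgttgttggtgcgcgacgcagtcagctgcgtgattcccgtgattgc
CLK4: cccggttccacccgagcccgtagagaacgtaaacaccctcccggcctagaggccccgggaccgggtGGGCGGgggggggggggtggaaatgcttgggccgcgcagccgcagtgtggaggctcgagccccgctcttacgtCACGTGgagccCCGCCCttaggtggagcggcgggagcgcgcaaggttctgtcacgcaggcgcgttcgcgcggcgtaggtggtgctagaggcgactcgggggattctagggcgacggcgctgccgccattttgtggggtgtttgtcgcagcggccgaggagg
SRPK1: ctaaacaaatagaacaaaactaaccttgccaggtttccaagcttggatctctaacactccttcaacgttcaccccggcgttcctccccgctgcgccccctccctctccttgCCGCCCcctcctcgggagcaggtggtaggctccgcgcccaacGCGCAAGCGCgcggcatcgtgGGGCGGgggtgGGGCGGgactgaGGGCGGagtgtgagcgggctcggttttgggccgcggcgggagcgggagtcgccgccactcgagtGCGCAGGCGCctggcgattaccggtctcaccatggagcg
CLK2: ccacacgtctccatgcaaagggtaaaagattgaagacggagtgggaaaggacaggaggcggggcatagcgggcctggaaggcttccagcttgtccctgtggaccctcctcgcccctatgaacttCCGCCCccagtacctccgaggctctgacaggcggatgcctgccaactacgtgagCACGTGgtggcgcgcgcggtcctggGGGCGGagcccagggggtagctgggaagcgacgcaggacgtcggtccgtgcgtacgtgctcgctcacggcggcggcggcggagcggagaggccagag
A GC box was found in 4 of the 6 kinase windows (CLK1, CLK2, CLK4 and SRPK1) and in 44.6% of 27305 human windows, or 70.7% of the 10995 windows of genes tested here. An NRF1 match was found for CLK1 and SRPK1 and in 6.29% of all windows (11.8% of those of genes tested). An E-box match was found for CLK4 and CLK2 and in 7.44% of all windows (1100 of the 10995 of genes tested). The CCAAT letters occurred in the CLK3 window alone among the kinases and in 35.7% of all windows, and the SRPK2 window held none of the motifs searched. SRPK2 has 4 listed windows and CLK1 and CLK3 have 2 each, of which only the first was searched. TATAAA (11.95% of all windows), CCGGAAG (10.7%), TGANTCA (7.76%) and TGACGTCA (1.98%) matched none of the 6. NRF1 and GC-box letters did not overlap in the windows shown. These matches are letters in a window, and no binding was measured. The 4 windows shown are the same 4 that hold a GC box, so its presence in all of them follows from that choice. The windows of SRPK2, which was higher, and CLK3, which was lower, held no GC box and are not shown.

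Across all 53 tested genes, 43 (81.1%) were called at a Benjamini-Hochberg (BH) adjusted p of at most 0.05 by edgeR's quasi-likelihood test, against 56.2% of the 15829 genes tested. In the SMN1-labelled libraries 16 (30.2%) were higher and 27 (50.9%) were lower, against 28.0% higher and 28.2% lower over all genes. Calls were more frequent among abundant genes: of those at 20 CPM or more, 72.8% were called, as were 39 of the 46 splicing regulators at that level (84.8%). The median log2 fold change was -0.10 over the 53, against 0.00 over all genes. CLK4 alone was also changed at least 1.5-fold, against 4.31% of genes higher and 7.76% lower by that rule; with the length and GC correction given below it was not, and 3 hnRNP genes were. In 44 of the 53 (83.0%) the 2 groups of libraries did not overlap in CPM, against 60.7% of all genes (30.4% higher and 30.2% lower). Libraries of a group lay close together, with a median coefficient of variation over the members of 3.13% in the SMN1-labelled and 2.76% in the control group. No label states whether the 3 libraries within a group are separate cultures. The p-values therefore measure spread between libraries, which may be technical.

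**Figure D1:**
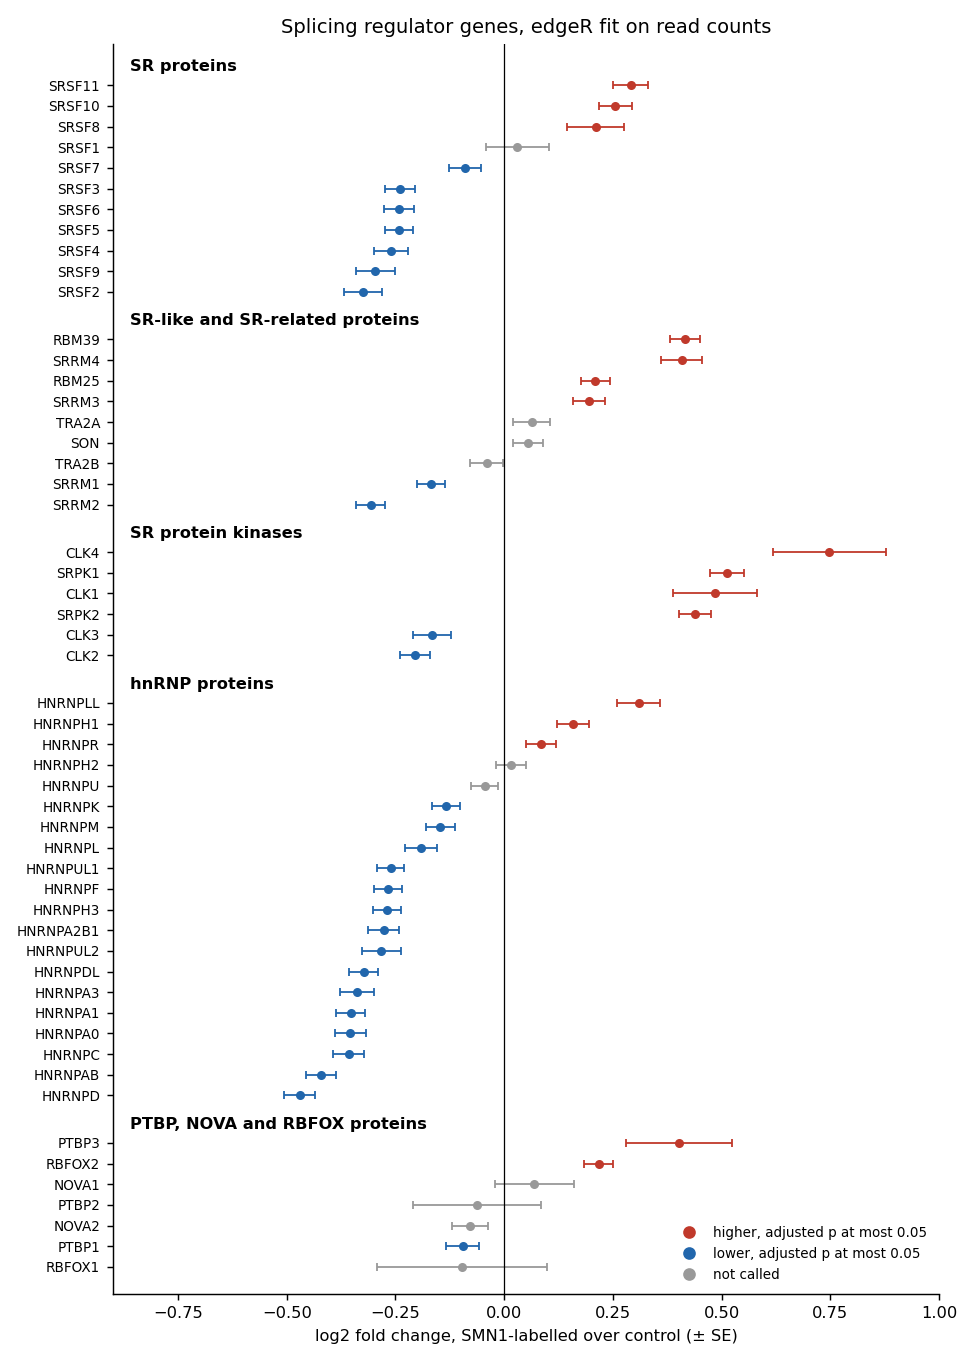
Log2 fold change (SMN1-labelled over control, x axis) of the 53 tested genes, grouped by family, with bars for the standard error of the edgeR fit on 3 libraries a group. Among the hnRNP genes 15 of 20 were lower (28.2% of all genes) and among the SR protein kinases 4 of 6 were higher (28.0% of all genes). With the length and GC correction the 3 SR genes and 3 hnRNP genes shown higher were not higher, and HNRNPH1 and HNRNPR were lower.

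Fold changes varied with base composition and length. Across 15663 genes the log2 fold change had a Spearman rho of -0.43 with the GC content of the longest transcript and 0.34 with exonic length. Over the 53 regulators the values were -0.23 and 0.27. Genes are not independent replicates. The 18 regulators lowest in GC (34.7% to 39.9%) had 9 higher and 6 lower, the 18 in the middle 4 and 10, and the 17 highest in GC (45.7% to 68.0%) 3 and 11. After removal of the length and GC trends within each library, 7 of the 53 were higher and 29 lower, against 26.0% and 22.8% of all genes, and their median log2 fold change was -0.19. At 1.5-fold or more the corrected fit had 0 of the 53 higher and 3 lower (5.66%), against 3.47% of genes higher and 4.89% lower. The 3 were HNRNPD, HNRNPC and HNRNPA0 (corrected log2 fold change -0.71, -0.61 and -0.60), and CLK4 stood at 1.42-fold. Of the 43 calls, 32 kept call and direction, 2 were called in the other direction (HNRNPH1 and HNRNPR) and 9 were lost. Below, the corrected value is given for each called gene whose call it ended or turned, or whose log2 fold change it moved by over 1.5 times.

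**Figure D2:**
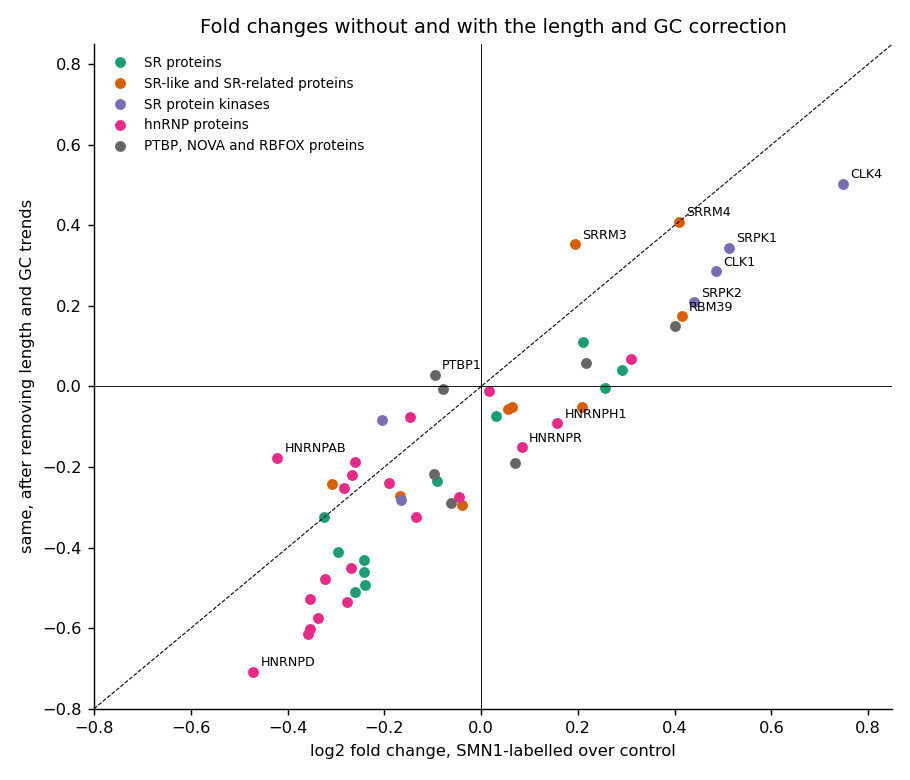
Log2 fold change of the 53 tested genes without (x axis) and with (y axis) the length and GC correction, coloured by family, with the line of equality dashed. SR and hnRNP genes lie mostly below the line, HNRNPD reaching -0.71, while the 4 higher kinases, SRRM3, SRRM4 and RBM39 are the 7 still called higher.

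Levels per length ranged from 0.01 FPKM in RBFOX3 upwards (here and below ± is the SD of 3 libraries). HNRNPA1 had the highest level, 965 ± 41 FPKM in SMN1-labelled and 1160 ± 7.3 FPKM in control libraries, followed in the control libraries by HNRNPAB (359 ± 13 FPKM in SMN1-labelled and 452 ± 5.4 FPKM in control libraries), HNRNPD (316 ± 2.5 FPKM in SMN1-labelled and 412 ± 16 FPKM in control libraries) and HNRNPA2B1 (302 ± 15 FPKM in SMN1-labelled and 344 ± 5.2 FPKM in control libraries). The 14 highest in the control libraries were all hnRNP genes, down to HNRNPDL (85.8 ± 2.6 FPKM in SMN1-labelled and 101 ± 1.1 FPKM in control libraries). Among SR proteins SRSF9, SRSF4 and SRSF5 led, and among the neuronal regulators RBFOX2 (33.6 ± 0.72 FPKM in SMN1-labelled and 27.2 ± 0.73 FPKM in control libraries). In the control group the neighbours SRSF9 (101 ± 3.7 FPKM) and SRSF4 (97.0 ± 3.5 FPKM) did not differ beyond their spread. As a share of all reads assigned to genes, the 54 together took 3.31%, 3.37% and 3.41% in the SMN1-labelled libraries, against 3.65%, 3.67% and 3.71% in the control libraries. The hnRNP genes made up most of it, with 2.74% ± 0.059 of reads in SMN1-labelled and 3.07% ± 0.030 in control libraries (SD, n = 3 each). Without HNRNPA1 the hnRNP share was 2.05% ± 0.033 against 2.24% ± 0.029. The kinases took 0.0353% ± 0.00036 in SMN1-labelled and 0.0297% ± 0.00038 in control libraries, and the SR-like group 0.251% ± 0.0022 against 0.232% ± 0.0024. In each of these shares the groups did not overlap (two-sided exact permutation p = 0.1, the smallest that 3 against 3 allow, and 0.1 adjusted over 7 shares).

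**Figure D3:**
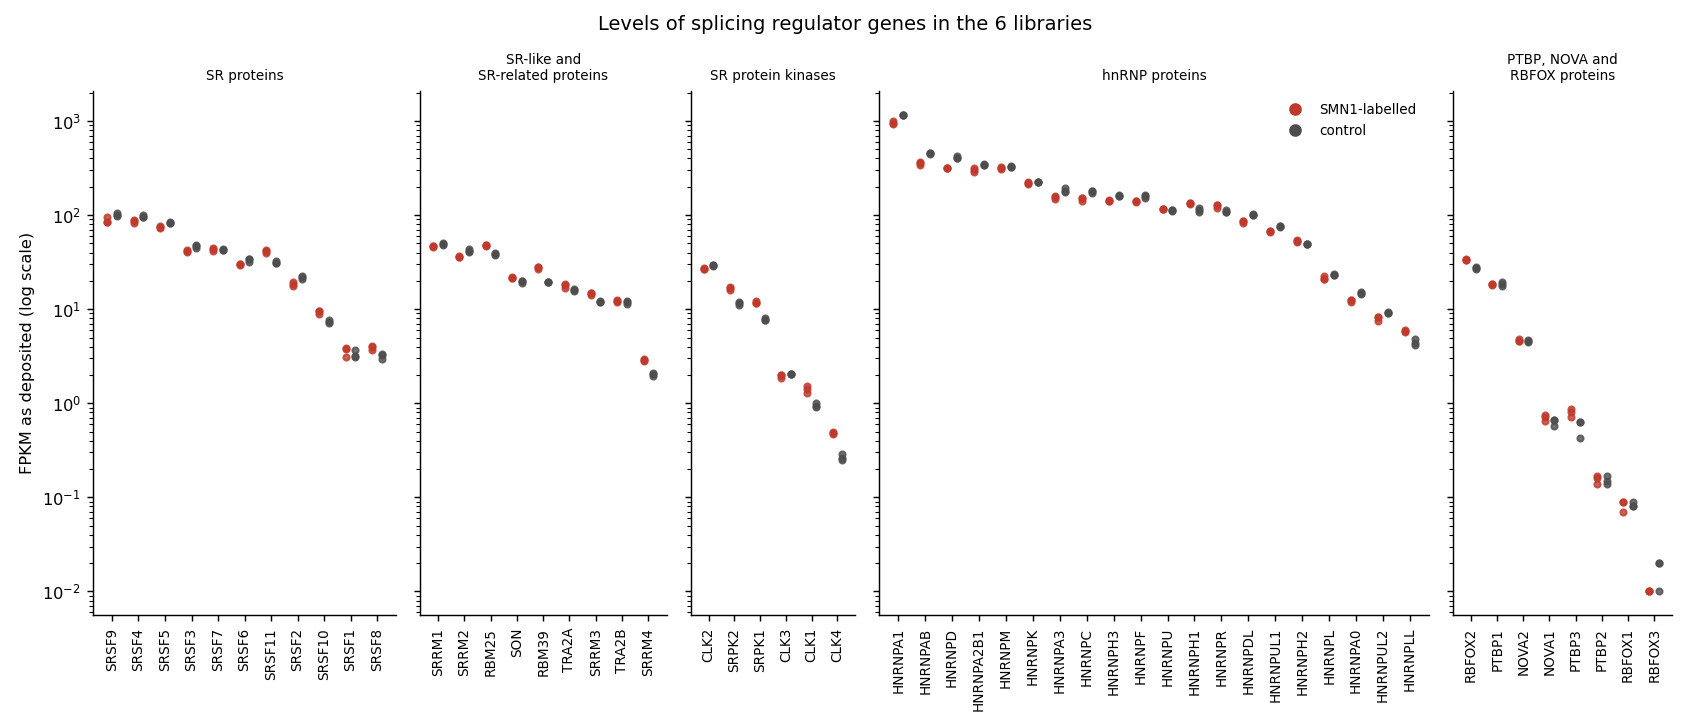
FPKM as deposited (log axis) of the 54 genes in each of the 6 libraries, SMN1-labelled left of control for each gene, ordered within a family by the control mean. HNRNPA1 lies highest, at 965 FPKM on average in SMN1-labelled and 1160 FPKM in control libraries, whereas RBFOX1 and RBFOX3 lie at or below 0.09 FPKM.

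Of the 6 SR protein kinases, 4 (66.7%) were higher, CLK4, SRPK1, CLK1 and SRPK2, and 2 (33.3%) lower, CLK2 and CLK3, in the SMN1-labelled libraries. All genes together had 28.0% higher and 28.2% lower. All 6 kinase calls held with the length and GC correction. CLK2 was nearest the threshold there (edgeR BH-adjusted p = 0.0409) and lost its call with a replicate block added (edgeR BH-adjusted p = 0.0763). SRPK1, which phosphorylates SR proteins for import into the nucleus, had 79.7, 80.6 and 83.2 CPM in the SMN1-labelled libraries, against 55.8, 58.3 and 56.5 CPM in the control libraries. That was a 1.43-fold difference with no overlap between groups (log2 fold change 0.51 with SE 0.039, adjusted p = 9.03e-11 in edgeR). Its paralog SRPK2, prominent in brain, had 106, 112 and 109 CPM in SMN1-labelled and 81.6, 80.7 and 79.2 CPM in control libraries, again without overlap (log2 fold change 0.44 with SE 0.037, adjusted p = 4.73e-10 in edgeR). Reads of SRPK2 over SRPK1 were 1.34 ± 0.036 in SMN1-labelled and 1.42 ± 0.040 in control libraries (SD, n = 3 each), which was within the spread (two-sided exact permutation p = 0.2).

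CLK1 and CLK4 encode close paralogs of the nuclear kinase, whose transcripts are known to be held partly unspliced in the nucleus. CLK1 had 7.58, 8.05 and 6.78 CPM in the SMN1-labelled libraries, against 5.63, 5.14 and 5.31 CPM in the control libraries, where every library was lower (log2 fold change 0.49 with SE 0.096, adjusted p = 0.000150 in edgeR). CLK4 was the scarcest of the kinases per length, at 0.483 ± 0.015 FPKM in SMN1-labelled and 0.267 ± 0.021 FPKM in control libraries. Its counts gave 4.06, 3.80 and 3.86 CPM in SMN1-labelled and 2.23, 2.19 and 2.55 CPM in control libraries, a 1.68-fold difference, the largest among the 53 without the length and GC correction (log2 fold change 0.75 with SE 0.13, adjusted p = 2.91e-05 in edgeR). The counts are per gene, so spliced and unspliced RNA were not separated. CLK2, which phosphorylates SR proteins and was the most abundant kinase per length, had 103, 101 and 101 CPM in SMN1-labelled and 114, 118 and 119 CPM in control libraries, lower in each of the 3 (log2 fold change -0.21 with SE 0.035, adjusted p = 2.66e-05 in edgeR). CLK3, a further CLK paralog, had 40.9, 40.3 and 37.1 CPM in the SMN1-labelled libraries, against 44.0, 44.4 and 44.5 CPM in the control libraries (log2 fold change -0.17 with SE 0.045, adjusted p = 0.00284 in edgeR). The 3 control libraries of CLK3 lay within 1 CPM of each other and above all SMN1-labelled ones, but on the FPKM scale its call was lost (limma BH-adjusted p = 0.282, within 1.13e-05 to 0.395 over all alternatives). In that FPKM fit the median log2 fold change of all genes was 0.087, against 0.00 in edgeR on counts. The corrected log2 fold changes were 0.50 for CLK4, 0.34 for SRPK1, 0.29 for CLK1, 0.21 for SRPK2, -0.08 for CLK2 and -0.28 for CLK3. Each of the 4 higher kinases and CLK2 thus lay nearer to 0 than without the correction.

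Ratios of read counts between CLK genes were taken for pairs chosen after their values were seen; 14 such ratios between members were computed in all, and no p below 0.127 was reached after Benjamini-Hochberg adjustment over them. Reads of CLK1 over CLK2 gave 0.0740, 0.0796 and 0.0674 in the SMN1-labelled libraries, against 0.0492, 0.0438 and 0.0446 in the control libraries. CLK4 over CLK3 gave 0.0993, 0.0942 and 0.104 in SMN1-labelled and 0.0507, 0.0494 and 0.0573 in control libraries. The groups did not overlap in either ratio of read counts (two-sided exact permutation p = 0.1 each, the smallest possible). The log2 fold change of CLK1 exceeded that of CLK2 by 0.69, and by 0.37 with the length and GC correction. For CLK4 over CLK3 the same difference was 0.91, or 0.78 corrected.

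**Figure D4:**
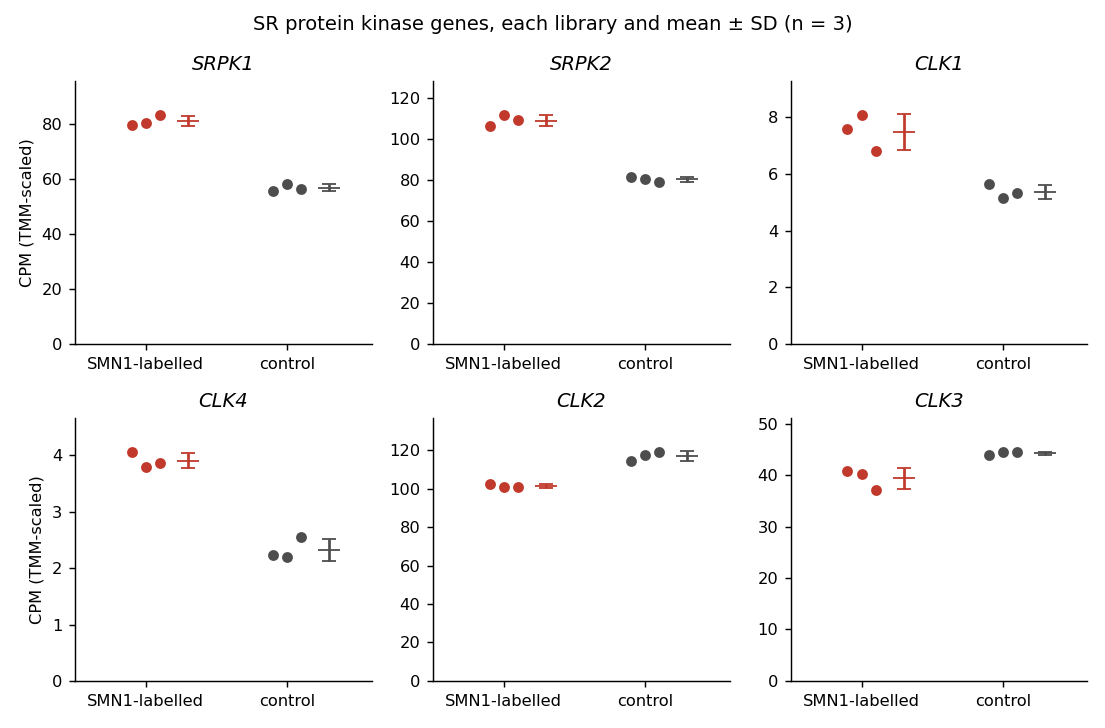
CPM (TMM-scaled, linear axis from 0) of the 6 SR protein kinase genes in each library, with mean and SD of the 3 libraries a group beside the points. In the top row and for CLK4 the SMN1-labelled libraries lie above all control libraries, and for CLK2 and CLK3 below them.

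Of the 11 SR proteins, 7 were lower (63.6%) and 3 higher (27.3%) in the SMN1-labelled libraries, and SRSF1 was not called. Over all genes 28.2% were lower and 28.0% higher, so the share of SR genes that were higher was near that of all genes. With the length and GC correction the 7 lower calls held and 0 were higher. SRSF2, an activator that resides in nuclear speckles, had 59.8, 56.3 and 53.9 CPM in SMN1-labelled and 70.6, 68.4 and 73.8 CPM in control libraries (log2 fold change -0.32 with SE 0.043, adjusted p = 9.18e-07 in edgeR). SRSF5, which like other SR genes controls its own level through exons that trigger decay, had 413, 420.4 and 402 CPM in SMN1-labelled and 485, 491 and 485 CPM in control libraries (log2 fold change -0.24 with SE 0.033, adjusted p = 9.81e-07 in edgeR). For both, every SMN1-labelled library was below every control library. The same separation was seen for SRSF6, at 153, 149 and 151 CPM in SMN1-labelled and 182, 180.4 and 173 CPM in control libraries (log2 fold change -0.24 with SE 0.035, adjusted p = 2.43e-06 in edgeR).

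SRSF3, the smallest SR protein and an adaptor for mRNA export, had 312, 304 and 297 CPM in SMN1-labelled and 359, 369.8 and 349 CPM in control libraries (log2 fold change -0.24 with SE 0.035, adjusted p = 2.46e-06 in edgeR). SRSF4, with one of the longest arginine-serine domains, had 811, 784 and 747 CPM in SMN1-labelled and 913, 906 and 987 CPM in control libraries (log2 fold change -0.26 with SE 0.038, adjusted p = 3.12e-06 in edgeR). SRSF9, the most abundant SR gene per length, had 362, 319 and 316 CPM in SMN1-labelled and 403, 391 and 429 CPM in control libraries (log2 fold change -0.30 with SE 0.044, adjusted p = 4.45e-06 in edgeR). None of these 3 genes had overlapping groups, although SRSF9 varied by 7.74% between the SMN1-labelled libraries. Of the SR genes called lower, SRSF7 had the smallest difference, log2 fold change -0.09 with SE 0.036, adjusted p = 0.0378 in edgeR. Its call was lost in 10 of 20 alternatives, among them without control library 1, 2 or 3 or SMN1-labelled library 3 (log2 fold change -0.10 to -0.06, edgeR BH-adjusted p = 0.0530 to 0.219, within 1.47e-05 to 0.968 over all alternatives). After the length and GC correction SRSF2 stayed at a log2 fold change of -0.32, SRSF9 was at -0.41, and SRSF4, SRSF3, SRSF5, SRSF6 and SRSF7 were further below 0, at -0.51, -0.49, -0.46, -0.43 and -0.23.

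The 3 SR genes that were higher were SRSF11, SRSF10 and SRSF8. SRSF11, an SR-related protein that acts with SRRM4 on neuronal microexons, had 374, 358 and 339.9 CPM in SMN1-labelled and 283, 286 and 308 CPM in control libraries, with no overlap (log2 fold change 0.29 with SE 0.039, adjusted p = 1.05e-06 in edgeR). SRSF10, which represses splicing when dephosphorylated, averaged 114 ± 3.9 CPM in SMN1-labelled and 95.9 ± 3.1 CPM in control libraries (log2 fold change 0.26 with SE 0.038, adjusted p = 4.44e-06 in edgeR). SRSF8, a human gene that arose by retroposition from SRSF2, averaged 17.4 ± 0.89 CPM in SMN1-labelled and 15.0 ± 0.90 CPM in control libraries (log2 fold change 0.21 with SE 0.065, adjusted p = 0.00837 in edgeR). With the length and GC correction these 3 had log2 fold changes of 0.04, -0.00 and 0.11, none of them called, and without control library 1 the SRSF8 call was lost (edgeR BH-adjusted p = 0.0637, within 0.00238 to 0.180 over all alternatives). SRSF1, a founding SR protein, had 18.7, 22.3 and 23.1 CPM in SMN1-labelled and 19.4, 23.1 and 20.3 CPM in control libraries and overlapped throughout. In it 53.8% of the 150-nt windows of the transcript also lie in the overlapping gene AC015813.2, which was not analysed here, so its level is uncertain. Read counts of SRSF11 over SRSF4, a pair chosen after the values were seen, were 0.458 ± 0.0031 in SMN1-labelled and 0.313 ± 0.0031 in control libraries (SD, n = 3 each, two-sided exact permutation p = 0.1, the smallest possible).

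Among the 9 SR-like and SR-related proteins, 4 were higher (44.4%), 2 lower (22.2%) and 3 not called in the SMN1-labelled libraries. The shares over all genes were 28.0% higher and 28.2% lower. RBM39, a U2AF-related splicing coactivator, had 344, 349.5 and 328 CPM in SMN1-labelled and 256, 254 and 256 CPM in control libraries, where the 3 values lay within 3 CPM of each other (log2 fold change 0.42 with SE 0.034, adjusted p = 3.91e-10 in edgeR). SRRM4, the neuronal activator of microexons, had 35.9, 36.0 and 36.8 CPM in SMN1-labelled and 26.2, 27.1 and 28.6 CPM in control libraries, a 1.33-fold difference (log2 fold change 0.41 with SE 0.047, adjusted p = 9.55e-08 in edgeR). Its paralog SRRM3 moved in the same direction, with 106, 105 and 99.3 CPM in SMN1-labelled and 92.2, 89.4 and 90.0 CPM in control libraries (log2 fold change 0.19 with SE 0.038, adjusted p = 0.000112 in edgeR). These 3 genes had no overlap between groups and stayed higher with the length and GC correction, which took SRRM3 to a log2 fold change of 0.35 and RBM39 to 0.17. RBM25, which binds exonic enhancers and the LUC7-like factors, had 577, 577 and 576 CPM in SMN1-labelled and 487, 492 and 518 CPM in control libraries (log2 fold change 0.21 with SE 0.033, adjusted p = 1.08e-05 in edgeR). It was not called with the correction, at a log2 fold change of -0.05 (edgeR BH-adjusted p = 0.215, within 7.55e-10 to 0.277 over all alternatives).

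The scaffold SRRM2, which with SON forms the core of nuclear speckles, had 491, 476 and 479.5 CPM in SMN1-labelled and 593, 617 and 581 CPM in control libraries, so all SMN1-labelled values were lower (log2 fold change -0.31 with SE 0.034, adjusted p = 4.09e-08 in edgeR). Its partner in splicing coactivation, SRRM1, had 372, 386 and 379 CPM in SMN1-labelled and 431, 423 and 423 CPM in control libraries (log2 fold change -0.17 with SE 0.032, adjusted p = 0.000114 in edgeR, and -0.27 with the length and GC correction). SON averaged 285 ± 4.5 CPM in SMN1-labelled and 275 ± 9.2 CPM in control libraries and was not called (log2 fold change 0.06). TRA2A and TRA2B, which bind GA-rich enhancers, were not called either: TRA2A averaged 64.9 ± 3.4 CPM in SMN1-labelled and 62.1 ± 1.6 CPM in control libraries, and TRA2B averaged 165 ± 4.3 CPM in SMN1-labelled and 169 ± 7.5 CPM in control libraries. TRA2B was called lower with the length and GC correction (log2 fold change -0.29, edgeR BH-adjusted p = 9.27e-07, within 9.27e-07 to 0.869 over all alternatives), and TRA2A was called higher without SMN1-labelled library 1 (edgeR BH-adjusted p = 0.0312, within 0.0195 to 0.529 over all alternatives). On the FPKM scale the family had 6 higher and 2 lower calls, SON and TRA2A among the higher. With 0.1 added to each FPKM, the median log2 fold change of all genes was 0.087, against 0.00 in edgeR on counts. The edgeR log2 fold changes of SON and TRA2A were both 0.06, and the part of that shift in their FPKM calls was not tested.

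The hnRNP genes were the family with the most members lower: 15 of 20 (75.0%) in the SMN1-labelled libraries, with 3 higher (15.0%) and HNRNPH2 and HNRNPU not called. Of all genes 28.2% were lower and 28.0% higher. Their median log2 fold change was -0.27, and -0.26 with the length and GC correction, under which 17 were lower and 0 higher. HNRNPD, which binds AU-rich elements and directs mRNA decay, had 2305, 2261 and 2249 CPM in SMN1-labelled and 3072, 3043 and 3328 CPM in control libraries (log2 fold change -0.47 with SE 0.035, adjusted p = 7.93e-11 in edgeR). Its relative HNRNPAB had 814, 784 and 748 CPM in SMN1-labelled and 1042, 1052 and 1048 CPM in control libraries (log2 fold change -0.42 with SE 0.034, adjusted p = 3.41e-10 in edgeR). Another gene of this subfamily, HNRNPDL, had 474, 498 and 493 CPM in SMN1-labelled and 601, 614 and 618 CPM in control libraries (log2 fold change -0.32 with SE 0.033, adjusted p = 1.41e-08 in edgeR). In all 3 the highest SMN1-labelled library lay below the lowest control library.

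HNRNPA1, a repressor of many exons including that of SMN2, had 6459, 6573 and 6932 CPM in SMN1-labelled and 8384, 8487 and 8626 CPM in control libraries (log2 fold change -0.35 with SE 0.033, adjusted p = 3.20e-09 in edgeR). HNRNPA0, of the same subfamily, had 112, 112 and 107 CPM in SMN1-labelled and 144, 139 and 141 CPM in control libraries (log2 fold change -0.35 with SE 0.035, adjusted p = 9.61e-09 in edgeR). HNRNPC, which coats uridine tracts and blocks the use of cryptic exons, had 1063, 1133 and 1138 CPM in SMN1-labelled and 1416, 1380 and 1478 CPM in control libraries (log2 fold change -0.36 with SE 0.036, adjusted p = 9.07e-09 in edgeR). Groups were again apart for each gene. HNRNPA3 and HNRNPA2B1, the other A/B members, had log2 fold changes of -0.34 and -0.28 and were called lower. Corrected for length and GC, the log2 fold changes were -0.71 for HNRNPD, -0.61 for HNRNPC, -0.60 for HNRNPA0, -0.58 for HNRNPA3, -0.54 for HNRNPA2B1 and -0.53 for HNRNPA1, against -0.18 for HNRNPAB. HNRNPA1 shares 22.2% of its 150-nt windows with 5 other genes, and with its reads summed with those of HNRNPA1P7 the log2 fold change was -0.34 (edgeR BH-adjusted p = 4.25e-09). HNRNPA1P7 held 17473, 20032 and 15138 reads in the SMN1-labelled libraries, where HNRNPA1 held 216296, 273429 and 227878. The sum is thus mostly HNRNPA1 and does not test its call, and the other sharing genes were not added.

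The remaining hnRNP genes that were lower ranged in log2 fold change from -0.28 in HNRNPUL2 to -0.13 in HNRNPK, which binds C-rich RNA. Between them stood HNRNPH3 (-0.27), HNRNPF (-0.27), HNRNPUL1 (-0.26), HNRNPL (-0.19) and HNRNPM (-0.15). The corrected values were -0.45 for HNRNPH3 and -0.32 for HNRNPK. On the FPKM scale the calls of HNRNPK, HNRNPL and HNRNPM were lost, and the family had 4 higher and 12 lower calls. The median log2 fold change of all genes was 0.087 with 0.1 added to each FPKM, against 0.00 in edgeR on counts. HNRNPM also lost its call with the length and GC correction (log2 fold change -0.08, edgeR BH-adjusted p = 0.0511, within 3.05e-05 to 0.179 over all alternatives). HNRNPUL2 shares 44.1% of its windows with the readthrough gene HNRNPUL2-BSCL2, and summed with it the log2 fold change was -0.210 (edgeR BH-adjusted p = 4.90e-06). The readthrough gene held 22114, 26959 and 21065 reads in the SMN1-labelled libraries, where HNRNPUL2 held 1388, 1923 and 1511. The sum is thus mostly the readthrough gene, itself at -0.205, and does not test the HNRNPUL2 call.

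HNRNPLL, HNRNPH1 and HNRNPR were the hnRNP genes higher in the SMN1-labelled libraries. HNRNPLL, known for exon choice in CD45 of lymphocytes, averaged 35.8 ± 0.85 CPM in SMN1-labelled and 28.9 ± 1.9 CPM in control libraries (log2 fold change 0.31 with SE 0.050, adjusted p = 1.22e-05 in edgeR). HNRNPH1, which binds G tracts, averaged 1300 ± 17 CPM in SMN1-labelled and 1165 ± 68 CPM in control libraries (log2 fold change 0.16 with SE 0.037, adjusted p = 0.000888 in edgeR). HNRNPR, which binds SMN protein in motor axons, averaged 1113 ± 38 CPM in SMN1-labelled and 1050 ± 34 CPM in control libraries with overlapping libraries (log2 fold change 0.08 with SE 0.035, adjusted p = 0.0443 in edgeR). With the length and GC correction HNRNPLL was not called (log2 fold change 0.07), while HNRNPH1 and HNRNPR were called lower (log2 fold change -0.09 and -0.15, edgeR BH-adjusted p = 0.0450 and 0.000360, within 5.85e-07 to 0.0599 and 0.000360 to 0.169 over all alternatives). The HNRNPR call was also lost by leaving out control library 1 or 2 or SMN1-labelled library 2 or 3 (edgeR BH-adjusted p = 0.125 to 0.169). HNRNPH2 averaged 126 ± 1.6 CPM in SMN1-labelled and 124 ± 2.1 CPM in control libraries and HNRNPU, a chromatin-associated scaffold, 2695 ± 41 CPM in SMN1-labelled and 2781 ± 42 CPM in control libraries; HNRNPU did not overlap between groups but missed the threshold (log2 fold change -0.05, edgeR BH-adjusted p = 0.227) and was called lower with the length and GC correction (log2 fold change -0.27, edgeR BH-adjusted p = 2.27e-07).

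Ratios of read counts between paralogs of the F/H and L groups were likewise taken for pairs chosen after the values were seen. The read ratio of HNRNPH1 to HNRNPF was 2.76, 2.76 and 2.75 in the SMN1-labelled libraries, against 2.06, 1.90 and 2.22 in the control libraries. HNRNPH1 over HNRNPH3 gave 1.65 ± 0.025 in SMN1-labelled and 1.23 ± 0.071 in control libraries, and HNRNPLL over HNRNPL 0.249 ± 0.016 against 0.176 ± 0.015 (SD, n = 3 each). The groups were apart in all 3 ratios (two-sided exact permutation p = 0.1 each, the smallest possible). The log2 fold change of HNRNPH1 exceeded that of HNRNPF by 0.42, but by 0.13 with the length and GC correction. It exceeded that of HNRNPH3 by 0.43, or 0.36 corrected. HNRNPLL exceeded HNRNPL by 0.50, or 0.31 corrected, with the limit of shared windows given above for HNRNPL. Control library 3 was the highest control library for 13 of the 20 hnRNP genes, and SMN1-labelled library 1 the lowest of its group for 12. Without control library 3 the family had 15 lower and 3 higher calls, and without SMN1-labelled library 1 also 15 and 3.

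**Figure D5:**
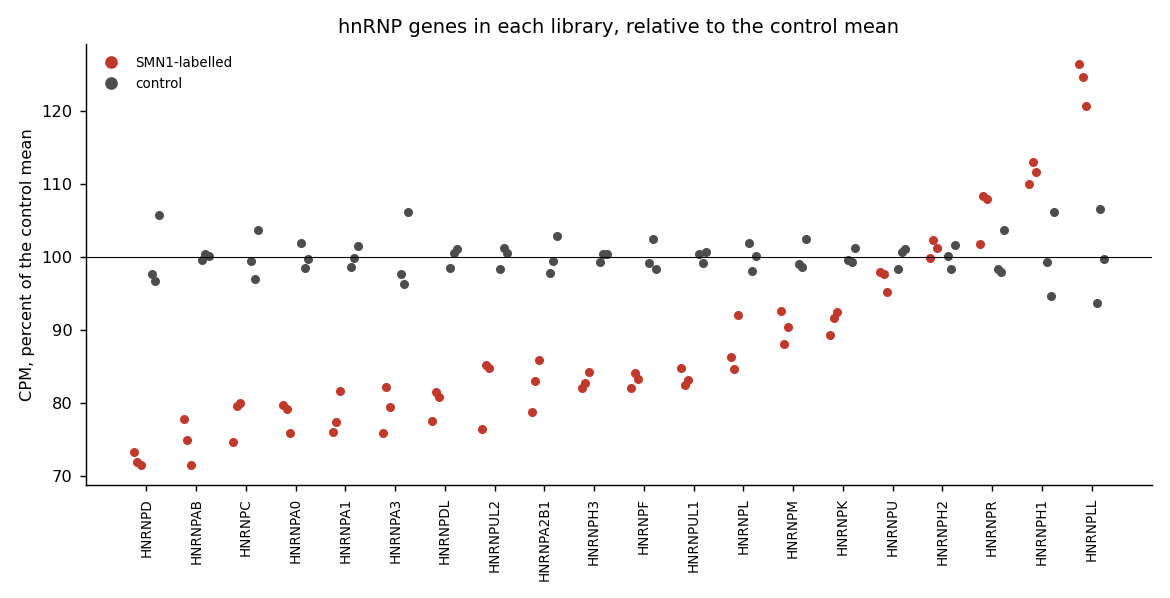
CPM of the 20 hnRNP genes in each library as a percentage of the control mean of that gene, SMN1-labelled left of control, ordered by log2 fold change. For the 15 genes called lower every SMN1-labelled library lies below every control library, and HNRNPH1 and HNRNPLL lie above; with the length and GC correction HNRNPH1 turns lower and HNRNPLL is not called.

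Of the 7 tested PTBP, NOVA and RBFOX genes, 2 were higher (28.6%) and 1 lower (14.3%) in the SMN1-labelled libraries. Among all genes 28.0% were higher and 28.2% lower, so neither count of this family was above the share of all genes by much. With the length and GC correction 0 were called in either direction. RBFOX2, which binds UGCAUG beside alternative exons, had 358, 355 and 367 CPM in SMN1-labelled and 308, 316 and 305 CPM in control libraries (log2 fold change 0.22 with SE 0.033, adjusted p = 5.42e-06 in edgeR). The groups were apart, but the corrected log2 fold change was 0.06 (edgeR BH-adjusted p = 0.118, within 7.35e-10 to 0.187 over all alternatives). RBFOX1, its neuronal relative, had 1.52, 1.49 and 1.06 CPM in SMN1-labelled and 1.40, 1.34 and 1.65 CPM in control libraries and overlapped. RBFOX3 was listed at 0.01 to 0.02 FPKM in all 6 libraries, so a difference was not detectable at this depth.

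PTBP1, the repressor of neuronal exons in non-neuronal cells, had 143, 144 and 138 CPM in SMN1-labelled and 149.6, 159 and 146 CPM in control libraries (log2 fold change -0.10 with SE 0.038, adjusted p = 0.0340 in edgeR). The groups did not overlap, but the call was lost without control library 1 or 2 or SMN1-labelled library 2 or 3 (edgeR BH-adjusted p = 0.0570 to 0.246) and the sign changed with the length and GC correction (0.03, edgeR BH-adjusted p = 0.536, within 0.0120 to 0.935 over all alternatives). PTBP2, which replaces PTBP1 as neurons form, had 2.09, 2.43 and 2.49 CPM in SMN1-labelled and 2.70, 2.33 and 2.31 CPM in control libraries, with overlap. Read counts of PTBP1 over PTBP2 were 61.1 ± 6.8 in SMN1-labelled and 62.3 ± 6.5 in control libraries (SD, n = 3 each), within the spread (two-sided exact permutation p = 0.9). PTBP3, a paralog known from blood cells, had 6.09, 6.88 and 7.30 CPM in SMN1-labelled and 5.76, 3.87 and 5.76 CPM in control libraries (log2 fold change 0.40 with SE 0.12, adjusted p = 0.00698 in edgeR). Control library 2 was the low one, and without it the log2 fold change was 0.23 (edgeR BH-adjusted p = 0.0797, within 0.000206 to 0.322 over all alternatives). It was not called with the length and GC correction either (0.15). NOVA1, which binds YCAY clusters in neurons, had 8.0, 6.95 and 7.57 CPM in SMN1-labelled and 7.42, 7.40 and 6.55 CPM in control libraries, with overlap. NOVA2, its cortical paralog, had 43.4, 42.9 and 45.5 CPM in SMN1-labelled and 46.9, 46.1 and 46.1 CPM in control libraries and was not called (edgeR BH-adjusted p = 0.111), although its groups did not overlap.

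Lists of related genes were read from the same fit, in which 28.0% of all genes were higher and 28.2% lower (26.0% and 22.8% with the length and GC correction). Of 17 tested further SR-related factors, 9 were higher and 6 lower (median log2 fold change 0.11, and -0.12 with the correction, under which 0 were higher and 9 lower). LUC7L, a U1-associated factor, fell to 121, 124 and 124 CPM in the SMN1-labelled libraries, against 214, 221 and 209 CPM in the control libraries (log2 fold change -0.80 with SE 0.035, adjusted p = 1.02e-14 in edgeR). SCAF1 was also lower (log2 fold change -0.44 with SE 0.038, adjusted p = 1.27e-09 in edgeR, and -0.21 with the correction), and LUC7L3 was higher (log2 fold change 0.28 with SE 0.035, adjusted p = 3.33e-07 in edgeR) but not with the correction (0.03). Of 20 further hnRNP-like and paraspeckle genes, 4 were higher and 12 lower (median -0.21), and 1 higher and 12 lower with the correction (median -0.18). They were led by EWSR1 (log2 fold change -0.62 with SE 0.034, adjusted p = 3.74e-13 in edgeR), the cold-inducible CIRBP (log2 fold change -0.68 with SE 0.041, adjusted p = 2.53e-12 in edgeR) and RALY, an hnRNP C relative (log2 fold change -0.53 with SE 0.033, adjusted p = 3.74e-12 in edgeR).

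Among 29 other tissue-regulated splicing factors 12 were higher and 5 lower, and 9 higher and 8 lower with the correction (median log2 fold change 0.05 in both). MSI2, an RNA-binding protein of progenitor cells, had 184, 190 and 190 CPM in SMN1-labelled and 125, 122 and 122 CPM in control libraries (log2 fold change 0.62 with SE 0.034, adjusted p = 5.45e-13 in edgeR). QKI, a regulator of glial and muscle exons, and RBM20, which splices titin in heart, were higher as well (log2 fold change 0.70 with SE 0.056, adjusted p = 2.60e-10 in edgeR, or 0.45 with the correction, and log2 fold change 0.39 with SE 0.036, adjusted p = 2.58e-09 in edgeR). Many SR and hnRNP genes limit their own level through transcripts that undergo nonsense-mediated decay, and GENCODE v29 lists at least 1 such transcript for 39 of the 54. Of 10 genes of that decay pathway 6 were higher and 1 lower (median 0.10), and 3 higher and 2 lower with the correction (median 0.04). Among them were SMG1, the kinase of UPF1, higher (log2 fold change 0.40 with SE 0.057, adjusted p = 2.44e-06 in edgeR, and 0.22 with the correction), UPF2 higher (log2 fold change 0.20 with SE 0.048, adjusted p = 0.000959 in edgeR) but at -0.03 and not called with the correction, and SMG9, a cofactor of SMG1, lower (log2 fold change -0.23 with SE 0.059, adjusted p = 0.00210 in edgeR). Decay itself was not measured, and the counts do not separate isoforms.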

How the data were processed

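Per the labels' protocols, DNase-treated total RNA was made into stranded mRNA libraries, size-selected after PCR and sequenced in paired 150-nt reads. The authors deposited whole-number read counts per gene, without normalization, and FPKM values, scaled by the authors for gene length and depth. HISAT2, DESeq2 and GRCh38 are named in the submitters' processing notes. The counting tool, annotation release and strand setting are not stated in the sources used here; 27 of the 54 genes overlap a gene on the opposite strand in GENCODE v29, and without strand such reads cannot be told apart.

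Counts were tested with edgeR 4.0.16 (default low-count filter, TMM, quasi-likelihood test, two-sided) over 15829 genes with Benjamini-Hochberg adjustment, SMN1-labelled against control. CPM are TMM-scaled and FPKM serve to compare genes. Alternatives used DESeq2 1.42.0, limma 3.58.1 (voom, or log2 of FPKM plus a pseudocount of 0.1 or 1), other size factors and filters, a replicate block, removal of ribosomal and mitochondrial genes, each library left out, and a spline correction for exonic length and GC content. Alternatives that summed reads with the gene sharing most 150-nt windows, or required 1.5-fold in the corrected fit, were chosen after seeing the data. On simulated data for this comparison (15656 genes) the fit recovered 79.1% of 1.5-fold, 84.8% of 2-fold and 100% of 4-fold changes and called 8 of 15457 unchanged genes. The simulated data held few changed genes, no change below 1.5-fold and no length or GC trend. In the real data 56.2% of genes were called, and all called members but CLK4 changed by less than 1.5-fold. These rates thus do not carry over to the calls above. Within groups, counts of library pairs differed beyond sampling noise (chi-square over its degrees of freedom 2.51 to 4.36), so none was treated as a duplicate. The members and gene lists were chosen with earlier results of these data known. All members may be named; values in every library are given for families of at most 8, and otherwise for the 6 called members with the smallest adjusted p and the 3 highest in FPKM. Of other lists up to 3 called genes are named in order of adjusted p. Individual values of genes outside that rule (SRSF1) were added after seeing the data.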

Additional observations from a re-analysis of the deposited data

How the results depend on the processing

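Of the 43 calls, 26 held under every alternative, 33 under all but the length and GC corrections, and 38 when any single library was left out. Over 1054 combinations of a gene and an alternative, 949 kept direction and side of the threshold, 56 lost the call, 13 gained one and 36 changed sign. Leaving out single libraries gave 14 to 17 members higher and 25 to 27 lower, and for the PTBP, NOVA and RBFOX genes 1 to 2 higher and 0 to 1 lower. Where counts moved, the cause was not tested.

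With the length and GC correction 7 members were higher (against 16) and 0 SR proteins, 0 hnRNP proteins and 0 PTBP, NOVA and RBFOX proteins were higher; 0 of the last were lower. Requiring 1.5-fold as well left 1 member higher, an SR protein kinase, and 0 lower, so 0 SR proteins, 0 SR-like proteins, 0 hnRNP proteins and 0 PTBP, NOVA and RBFOX proteins were called in either direction and 0 kinases lower. Requiring it in the corrected fit, an alternative chosen after seeing the data, left 0 members higher and 3 lower, all hnRNP proteins, so 0 kinases and 0 hnRNP proteins were higher and 0 SR, SR-like, kinase and PTBP, NOVA and RBFOX proteins were called in either direction. On log2(FPKM + 0.1) or log2(FPKM + 1), 1 kinase was lower and 0 PTBP, NOVA and RBFOX proteins, and without the filter on FPKM also 1 SR-like protein was lower and 1 PTBP, NOVA or RBFOX protein higher. On log2(FPKM + 0.1) 5013 of all genes were higher and 3013 lower, against 4426 and 4466, and the members had 18 higher and 21 lower. The median log2 fold change of all genes there was 0.087, against 0.00 in the main fit. On log2(FPKM + 1) it was 0.062, and 0.0042 without the filter on FPKM. The part of this shift in the calls gained and lost on FPKM was not tested. With DESeq2, or without the low-count filter, 0 PTBP, NOVA and RBFOX proteins were lower.

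The replicate numbers do not pair the libraries: deviations of same-numbered libraries correlated at 0.0053, 0.0133 and 0.0030, and not every library correlated best with its own number. The replicate block gave 15 members higher and 26 lower. Together with the length and GC correction the block gave 7 members higher, 0 SR, hnRNP and PTBP, NOVA and RBFOX proteins higher, 1 kinase lower and 0 PTBP, NOVA and RBFOX proteins lower. CLK2 was the kinase that lost its call.

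Log2 fold changes changed sign as follows, the value with the block given second. With the length and GC correction they were -0.074 and -0.078 for SRSF1, -0.0035 and -0.0039 for SRSF10, -0.052 and -0.053 for TRA2A, -0.055 and -0.055 for SON, -0.051 and -0.050 for RBM25, -0.091 and -0.090 for HNRNPH1, -0.011 and -0.011 for HNRNPH2, -0.15 and -0.15 for HNRNPR, 0.029 and 0.029 for PTBP1, and -0.19 and -0.19 for NOVA1. On log2(FPKM + 0.1) and log2(FPKM + 1) they were 0.048 and 0.044 for TRA2B, 0.043 and 0.043 for HNRNPU and 0.012 and 0.0100 for NOVA2. Without the FPKM filter they were 0.044 for TRA2B, 0.043 for HNRNPU, 0.0100 for NOVA2 and 0.0042 for PTBP2. Leaving out single libraries gave -0.024 to 0.12 for SRSF1, -0.10 to 0.014 for PTBP2 and -0.17 to 0.043 for RBFOX1. Depth limits the scarce genes: RBFOX1, PTBP2 and CLK4 had under 5 CPM in every library, and RBFOX3 could not be tested.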
